A study of Mus musculus with 8 samples.

Results

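The data compare how far an mRNA was enriched in stress granules over total RNA in mouse embryonic fibroblasts that lacked Mettl3 and in fibroblasts that had it. For each gene the value is the log2 granule-to-total ratio in the knockout minus the same ratio in the control, an interaction to which all 4 groups contribute with equal weight. A positive value, called higher here, means a larger granule-to-total ratio in the knockout. All 8 of the 8 libraries enter, and 18952 of the 39017 genes in the table passed the filter on low counts and were tested. Each group had 2 biological replicates. The control total and knockout total groups were unstressed cells of the 2 genotypes. The control granule and knockout granule groups were cells of the same genotypes given 500 µM sodium arsenite for 30 min, from which a fraction enriched for stress granules was spun down. Stress and fraction therefore changed together, and a shift in the mRNA content of the stressed cell and a shift into or out of granules cannot be told apart. The fibroblasts were derived from E13.5 embryos. In the knockout cells Cre recombinase was activated with 500 nM 4-hydroxytamoxifen over 48 h, and the loss of METTL3 protein and of the modification was checked after 7 days, with harvest on the day after. Whether control cells received the drug, what drives the Cre, and whether cultures came from separate embryos is not stated in the labels, so the p-values measure the spread between these libraries. All RNA was poly(A) selected. Levels are given in CPM (counts scaled to a common library total), which rank a gene against itself across libraries and not against other genes.

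METTL3 is the catalytic subunit of the nuclear methyltransferase complex that places N6-methyladenosine, or m6A, mostly at adenosines inside a short consensus whose best-known form reads GGACT in DNA letters. YTH-domain proteins read the mark and speed the decay of marked mRNAs, among other roles. Stress granules are cytoplasmic bodies of untranslated mRNA and RNA-binding proteins such as G3BP1 that assemble within minutes of arsenite. Embryonic fibroblasts make collagen-rich matrix and respond strongly to interferon, which gives several of the gene groups below their background.

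The consensus is shown for the 4 protein-coding genes with the highest and the 4 with the lowest interactions among the called genes at a mean of 5 CPM or more. Each line is a 25-base window read 5′ to 3′ on the mRNA strand around the GGACT nearest the end of the coding sequence, in the longest coding transcript of GENCODE M21 (GRCm38). Capitals mark the GGACT. No map of m6A was used, so a match is a stretch of letters and not a known site.
Stra6: tgggatcaggGGACTggagtcactg
Ifi27l2a: aggggtccttGGACTctccacatca
Cygb: cccagaaacaGGACTggattttttg
Plxdc1: agacatgcgaGGACTtccaggatga
Trpc1: cttggctttcGGACTtctaaatatg
Lcn2: tggccaccacGGACTacaaccagtt
Sp8: tgctccccttGGACTgtcctgtgct
Fam110c: gaggccacttGGACTaagtcgagcc
The Stra6 window lies at chr9:58153449-58153473 on the plus strand in the 3′ UTR, and that of Sp8 at chr12:118850287-118850311 on the plus strand, also in the 3′ UTR. The Cygb window, at chr11:116654170-116654194 on the minus strand, is in the 5′ UTR. The others are coding: Plxdc1 at chr11:97932305-97932329, Trpc1 at chr9:95706763-95706787 and Lcn2 at chr2:32385768-32385792, all on the minus strand, Fam110c at chr12:31074785-31074809 on the plus strand, and Ifi27l2a, whose window is split by an intron, between chr12:103442361 and 103442833 on the minus strand. The median content was 1.17 GGACT per kb of transcript in 73 genes called higher, 1.15 in 19 called lower and 1.06 in all 15370 coding genes tested. Among genes called without knockout total replicate 1 the medians were 1.15 for those higher and 0.985 for those lower.

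The table held 67257220 to 123508539 counts a library, and the knockout total replicates stood apart. Among 10261 genes at 5 CPM or more, 40.1% differed by over 2-fold between the knockout total replicates, against 2.33% in control total, 0.127% in control granule and 0.351% in knockout granule. Results are therefore given with and without knockout total replicate 1 in most cases. Values without replicate 2 are added for many, though not all, genes and lists whose call or value depended on which of the pair was left out. Mettl3, the targeted gene, had 25.4 and 24.9 CPM in control total, 15.7 and 15.4 in control granule, 6.01 and 7.35 in knockout total and 5.56 and 6.38 in knockout granule libraries. Both knockout groups lay below both control groups, as the genotype labels say. The labels do not place the deleted part, so reads from outside it cannot be set aside. Its interaction was 0.53 (SE 0.37, adjusted p = 0.37) by edgeR's quasi-likelihood test, short of the threshold, and 0.38 without knockout total replicate 1, with no single group carrying it. Part of the gene (18.4%) overlaps another gene model, and whether counting used strand is not known here. Of 6 marker lists, the fibroblast genes summed to 3615 to 8134 CPM in each library and led in all of them. Immune markers summed to 85.5 to 147 CPM, endothelial to 11.3 to 31.5, muscle to 9.91 to 27.7, neural and glial to 208 to 686 and epithelial to 222 to 1226. The fibroblast, epithelial and neural and glial sums were lowest in the knockout total libraries. Fewer cells of a type and less RNA per cell cannot be told apart in such bulk libraries, and the part of these markers in the results was not tested.

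With all 8 libraries, 76 genes had a higher granule-to-total ratio in the knockout and 22 a lower one. That is 98 genes, or 0.517% of those tested (0.401% higher and 0.116% lower), at an adjusted p under 0.05 by edgeR's quasi-likelihood test with Benjamini-Hochberg adjustment. Among the higher ones were 3 genes of collagen VI, 2 of retinoid uptake and binding and 2 Ifi27 family members. Among the lower ones were 2 cell cycle genes, 1 p53 target and 1 acute phase gene. The median interaction of the genes called higher was 3.52, with a range of 2.15 to 6.46, and that of the genes called lower was -2.65, from -6.52 to -2.22. The direction crossed zero for most: the ratio had opposite signs in the 2 genotypes for 61 of the 76 and 19 of the 22, against 8432 of all 18952. The called genes were selected on the difference of these same 2 ratios. Such a choice favours opposite signs, so these counts are not a separate result. Without knockout total replicate 1, 3712 of 19981 genes were called (18.6%), 1661 of them higher (8.31%) and 2051 lower (10.3%). Knockout total then rests on 1 library, which is assumed to vary like the other 3 groups, so the SEs and p-values of this fit leave out the spread of the most variable group. The same holds without replicate 2. Without replicate 2 of that group the count was 9349 of 20129 (46.4%), 4142 higher (20.6%) and 5207 lower (25.9%). All 76 and all 22 kept their direction in each of these 2 fits, which leave out 1 knockout total library at a time. Leaving out any 1 of the other 6 libraries left 0 calls by edgeR, with 2542 to 4434 genes at an unadjusted p under 0.05, all 98 among them each time. With all 8 libraries 4898 genes, or 25.8%, had an unadjusted p under 0.05, 11.3% of all genes higher and 14.6% lower. Counts of list members below stand against these shares, against 18.6% called without knockout total replicate 1 and against 46.4% called without replicate 2.

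The number and balance of calls also moved with the model and with base composition. DESeq2 called 2724 of the 18952 genes, 1008 higher and 1716 lower, and limma voom with a quality weight per library 742, 250 higher and 492 lower. The share of calls that were higher was 77.6% under the scaling used here, 85.3% under upper-quartile scaling, 84.3% on library size alone and 36.5% after removal of a trend with GC content, which moved the median of all genes by -0.11. That removal called 1690 genes, 617 higher and 1073 lower. Counts of list members given below by DESeq2, limma voom or this removal stand against these totals over all tested genes. Across 18694 genes the interaction rose with the GC content of the transcript, with a Spearman rho of 0.447, of 0.233 without knockout total replicate 1 and of 0.542 without replicate 2. Genes share libraries and are not independent, so no p is given. The genes called higher had a median GC content of 53.6% and those called lower 49.6%, against 49.9% for all tested. The part of GC content in the calls was not tested gene by gene. The 1690 genes called after the trend was removed included 75 of the 76 and all 22. Upper-quartile scaling moved the median of all genes by 0.24 and library size alone by 0.19 (log2), while all 98 kept their direction in each setting in which they were tested.

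To say which group made each difference, the group was found whose removal left the other 3 group means of log2 CPM closest together, and it was said to carry the difference if those 3 then spanned under 50% of the interaction. Knockout granule libraries carried 47 of the 76 genes called higher (61.8%) and 11 of the 22 called lower. They carried 2579 of all tested genes (13.6%), of which 52.3% had no single carrying group. Among the higher genes, the other carriers were knockout total for 9, control granule for 7 and control total for 2, and 11 had none. Among the lower ones, control granule carried 6, knockout total 4 and control total 1. Without knockout total replicate 1 the counts were 48 for knockout granule and 9 for knockout total among the higher genes, and 11 and 4 among the lower ones, with control granule at 7. A stricter limit of 33.3% left 26 higher and 5 lower genes with knockout granule and put 47 and 14 under no single group. The carrying group was the same for 41 of the 43 named genes when knockout total replicate 1 was left out, the exceptions being Zfp36l2 and mt-Rnr2. It moved for 17 of the 43 under the stricter limit, in each case to no single group. Those called higher were Stra6, Ifi27l2a, Scara5, Loxl2 and Rab3il1. The rest were Trpc1, Lcn2, Sp8, Fam110c, Slc19a2, Zfp36l2, Abcb1b, Eda2r, Zfp697, Zmat3, Ccnd1 and Rrm2. Where a single group is said below to carry one of these, that holds under the 50% limit alone. Among genes called without knockout total replicate 1, and scored without it, knockout granule carried less: 32.6% of those higher and 31.7% of those lower. Control granule carried 18.1% of those higher and 30.1% of those lower. The shares describe the called genes and were not tested against the rest.

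**Figure D1:**
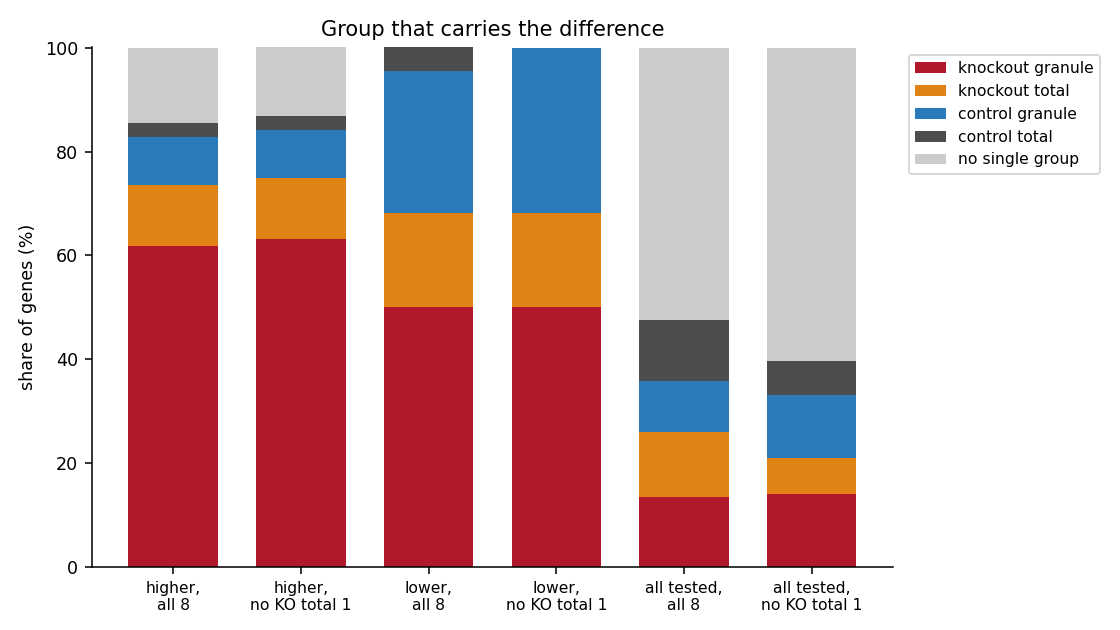
Share of genes, in percent, by the group that carries the difference, for the 76 genes called higher, the 22 called lower and all tested genes, with all 8 libraries and without knockout total replicate 1. Knockout granule takes 61.8% of the higher genes and 13.6% of all tested genes.

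Several genes of extracellular matrix proteins were called higher, 3 of them from the collagen list. Collagen VI is a beaded-filament collagen built from chains of several genes, and the 3 that encode its main chains, Col6a1, Col6a2 and Col6a3, all rose. Col6a2 (chromosome 10, 76595762 to 76623630) had 103 and 81.8 CPM in control total, 69.3 and 62.6 in control granule, 50.1 and 63.8 in knockout total and 451 and 382 in knockout granule libraries. The knockout granule libraries alone were high, at least 3.71 times the highest of the other 6. The interaction was 3.36 (SE 0.38, adjusted p = 0.037), and 3.18 (SE 0.29, adjusted p = 7.6e-05) without knockout total replicate 1. Col6a1 had 354 and 288 CPM in control total, 232 and 201 in control granule, 170.4 and 194 in knockout total and 881 and 719 in knockout granule libraries, with an interaction of 2.70 (SE 0.37, adjusted p = 0.039). Col6a3 had 18.0 and 20.7 CPM in control total, 19.4 and 14.6 in control granule, 13.45 and 13.6 in knockout total and 83.8 and 64.9 in knockout granule libraries, and its interaction was 2.65 (SE 0.40, adjusted p = 0.044). In both, the knockout granule libraries lay above the other 6, and knockout granule carried all 3 genes with or without knockout total replicate 1, whose absence gave 2.60 for Col6a1 and 2.63 for Col6a3.

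Dpt, which encodes the small matrix protein dermatopontin, had 8.24 and 5.66 CPM in control total, 3.96 and 3.40 in control granule, 4.41 and 6.75 in knockout total and 61.9 and 55.8 in knockout granule libraries. The other 6 libraries all stayed below 9 CPM. The interaction was 4.31 (SE 0.47, adjusted p = 0.037), and knockout granule carried it. Col27a1, a fibrillar collagen gene, had 4.41 and 4.79 CPM in control total, 2.63 and 2.22 in control granule, 2.50 and 3.81 in knockout total and 16.9 and 18.2 in knockout granule libraries, and again the knockout granule libraries alone were high, with an interaction of 3.40 (SE 0.44, adjusted p = 0.037). Loxl2, a lysyl oxidase family gene whose enzyme crosslinks collagen, differed from these. It had 20.3 and 15.9 CPM in control total, 15.6 and 13.9 in control granule, 3.86 and 4.02 in knockout total and 36.4 and 72.2 in knockout granule libraries, so the knockout total libraries were lowest and the knockout granule libraries highest, with the controls between them. Its interaction was 4.08 (SE 0.52, adjusted p = 0.037), carried by knockout total under the 50% limit and by no single group under the stricter one. Islr, a secreted leucine-rich repeat gene, had 5.43 and 3.49 CPM in control total, 1.14 and 0.589 in control granule, 4.70 and 8.04 in knockout total and 28.9 and 17.2 in knockout granule libraries. Control granule was lowest and knockout granule highest, so no single group carried its interaction of 4.22 (SE 0.68, adjusted p = 0.049). On leaving out knockout total replicate 1 the interactions of these 4 genes were 4.02 in Dpt, 3.11 in Col27a1, 4.04 in Loxl2 and 3.87 in Islr.

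**Figure D2:**
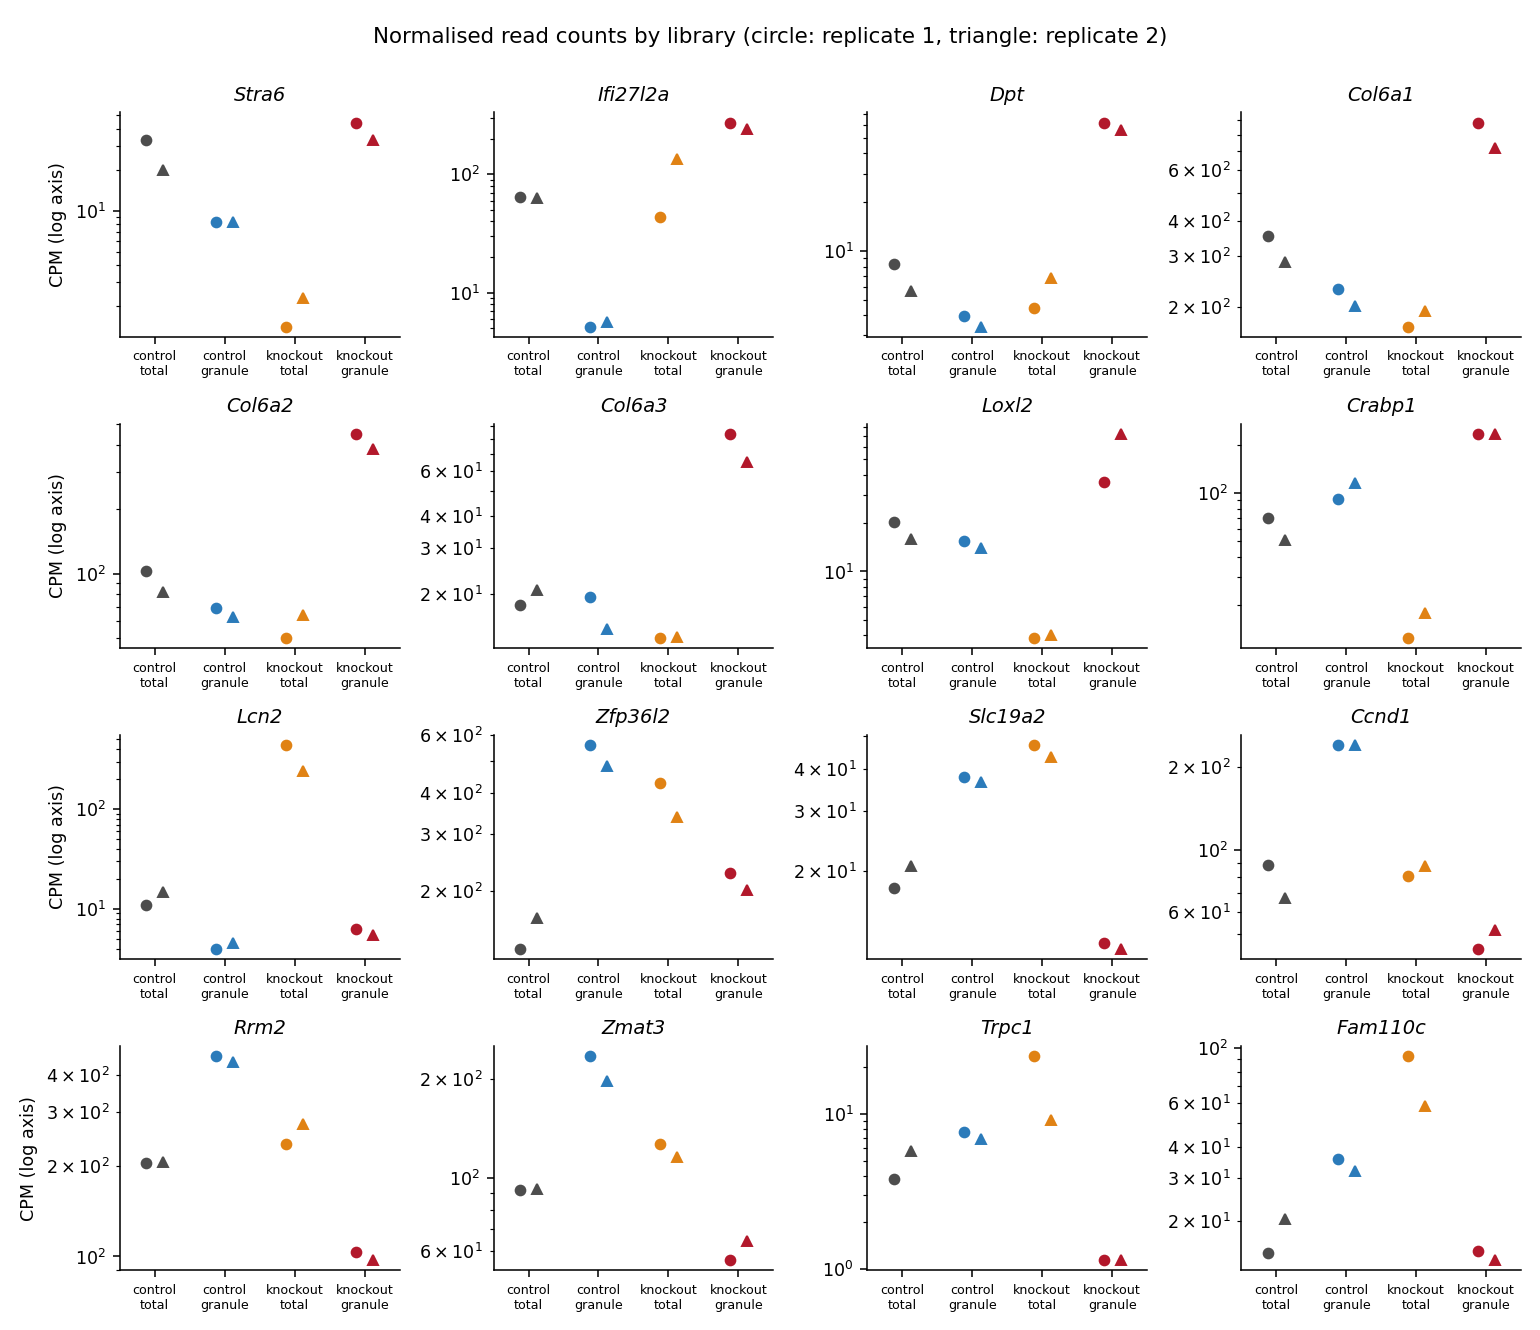
CPM on a log axis in each of the 8 libraries for 16 of the called genes, with 1 panel a gene, groups along the x axis, circles for replicate 1 and triangles for replicate 2. In Dpt and the 3 collagen VI genes the knockout granule points lie above all others, and in Rrm2 and Slc19a2 they lie below all others.

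Of the 19 collagen genes tested, 3 were called higher and 0 lower by edgeR, with 10 higher and 1 lower at an unadjusted p under 0.05. The median interaction of the list was 1.19, against 0.09 for all tested genes. Removal of the GC trend brought the list's median with all 8 libraries to 0.75, with 6 called higher and 0 lower. Without knockout total replicate 1 the calls were 11 higher and 1 lower, with a median of 1.19, and without replicate 2 they were 12 higher and 2 lower. The one lower without replicate 1 was Col12a1, at -1.26 with all 8 libraries (adjusted p = 0.13 by edgeR), -0.97 without that library and -1.68 without replicate 2. Col27a1 and Col28a1, also called higher with all 8 libraries, were not on the list, and the latter, at 3.80 (adjusted p = 0.040 by edgeR), is named after its value was seen. Of 19 matrix metalloproteinase and inhibitor genes, 0 were called by edgeR, with 8 higher and 2 lower at an unadjusted p under 0.05, 6 called higher without knockout total replicate 1 and 10 higher and 2 lower without replicate 2. The calls with all 8 were 5 higher and 1 lower by DESeq2 and 1 higher and 0 lower by limma voom. Mmp14, a membrane-bound metalloproteinase that activates MMP2, had 263 and 209 CPM in control total, 278 and 242 in control granule, 189 and 250 in knockout total and 1213 and 1072 in knockout granule libraries. Its interaction of 2.24 (SE 0.38, adjusted p = 0.057 by edgeR) narrowly missed the threshold, and knockout granule carried it under the 50% limit. The value was 2.04 without knockout total replicate 1, with the same carrying group, and 2.285 without replicate 2. Mmp13, an interstitial collagenase, went the other way at -2.18 (adjusted p = 0.13 by edgeR), -1.13 without knockout total replicate 1 and -2.96 without replicate 2, with 569 and 179 CPM in the knockout total libraries, which did not agree, and 51.6 and 33.0 in knockout granule. Of 30 other secreted matrix genes, only Loxl2 was called, and the list's median of 0.23 was -0.15 without knockout total replicate 2.

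The retinoid genes gave the highest interaction among the named genes. Retinol is taken up by the receptor STRA6 and converted to retinoic acid, which CRABP1 binds. Stra6 (chromosome 9, 58063788 to 58153996) had 33.2 and 20.0 CPM in control total, 8.31 and 8.20 in control granule, 1.41 and 2.29 in knockout total and 44.2 and 32.9 in knockout granule libraries. Its level was lower in granule than in total libraries of the control and far higher in granule than in total libraries of the knockout, and none of the 4 groups overlapped except control total with knockout granule. The interaction was 6.07 (SE 0.55, adjusted p = 0.027), made of log2 ratios of -1.64 in the control and 4.39 in the knockout. Knockout total carried it under the 50% limit, and the value without its replicate 1 was 5.75 (SE 0.44, adjusted p = 5.9e-05). Crabp1 had 69.9 and 51.2 CPM in control total, 91.6 and 115 in control granule, 12.5 and 17.8 in knockout total and 234 and 233 in knockout granule libraries. Its knockout total libraries were lowest and its knockout granule libraries highest, so no single group carried the interaction of 3.17 (SE 0.42, adjusted p = 0.039). The value without knockout total replicate 1 was 2.93.

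These were the 2 calls among the 17 listed retinoid genes tested, with 0 lower by edgeR and 6 higher and 1 lower at an unadjusted p under 0.05. The list's median of 0.51 was 0.31 without knockout total replicate 1, under which 4 were called higher and 1, Rdh10, lower, and 9 higher and 3 lower were called without replicate 2. Removal of the GC trend turned the median with all 8 libraries to -0.13. Rdh10 encodes a retinol dehydrogenase, and its interaction was -0.85 with all 8 libraries (adjusted p = 0.18 by edgeR). The value was -0.93 without knockout total replicate 1 and -0.94 without replicate 2. Dhrs3, a retinaldehyde reductase gene induced by retinoic acid, had an interaction of 2.61 (adjusted p = 0.075 by edgeR) with all 8 and of 2.35 without knockout total replicate 1. Aldh1a1, which makes retinoic acid, was at -1.31 with all 8 libraries and -0.47 without knockout total replicate 1, short of the threshold in both, and was called at -2.01 (adjusted p = 7.3e-05) without replicate 2.

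Both called interferon-stimulated genes were members of the Ifi27 family of small mitochondrial and membrane proteins, and different groups carried them. Ifi27l2a had 64.1 and 63.4 CPM in control total, 5.16 and 5.68 in control granule, 43.4 and 134 in knockout total and 274 and 243 in knockout granule libraries. The control granule libraries were at least 7.64 times lower than any other library and carried the interaction of 5.10 (SE 0.69, adjusted p = 0.039). The knockout total replicates differed 3.09-fold, and without replicate 1 the value was 4.49 (SE 0.28, adjusted p = 8.9e-06). Ifi27 had 422 and 388 CPM in control total, 51.7 and 59.9 in control granule, 29.7 and 63.0 in knockout total and 64.0 and 60.3 in knockout granule libraries. Here the control total libraries alone were high and the other 6 overlapped, so control total carried the interaction of 3.28 (SE 0.51, adjusted p = 0.047). The log2 difference of knockout from control was -3.23 between the total groups and 0.16 between the granule groups. The interaction was 2.83 without knockout total replicate 1.

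Of 30 interferon-stimulated genes tested, 2 were called higher and 0 lower by edgeR, with 12 higher and 3 lower at an unadjusted p under 0.05. The median was 0.62, rising to 1.07 without knockout total replicate 1, with 15 higher and 2 lower, and falling to 0.09 without replicate 2, with 12 higher and 6 lower. Several members were uneven between those replicates. Bst2, whose product tethers budding virus to the cell, had 651 and 687 CPM in control total, 53.4 and 49.9 in control granule, 204 and 1565 in knockout total and 974 and 954 in knockout granule libraries. Its interaction was 3.82 (SE 1.05, adjusted p = 0.10) with all 8 libraries, 2.98 (SE 0.26, adjusted p = 7.6e-05) without knockout total replicate 1 and 5.76 (adjusted p = 9.1e-07) without replicate 2. Ifit2, a cytoplasmic antiviral gene, went the other way at -2.78 with all 8, -1.93 without replicate 1 and -3.48 without replicate 2, from 1117 and 426 CPM in knockout total. Under the 50% limit, control granule carried Bst2 and knockout total carried Ifit2, with or without knockout total replicate 1. Usp18, which limits interferon signalling, had 244 and 291 CPM in control total, 9.12 and 9.03 in control granule, 283 and 550.3 in knockout total and 109 and 94.7 in knockout granule libraries, with an interaction of 2.85 (SE 0.48, adjusted p = 0.057 by edgeR). The Usp18 interaction was 2.43 without knockout total replicate 1 and 3.23 without replicate 2. The core of the interferon-stimulated response element, GAAA and again GAAA after any 2 bases, was looked for on both strands from 250 bases before to 50 after the start of each gene in the RefSeq promoter table (GRCm38.p6). It was present in 13 of the 20 interferon-stimulated genes with an entry (65%), in 3 of the 57 called genes with one (5.26%) and in 489 of 12722 tested genes (3.84%). Both Ifi27 family genes are named without an entry.

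Of the other 8 genes named among those higher, knockout granule carried 4. Osr2, a zinc-finger transcription factor gene of limb and palate mesenchyme, had 23.3 and 13.8 CPM in control total, 11.6 and 12.5 in control granule, 11.9 and 13.3 in knockout total and 109 and 79.0 in knockout granule libraries, with an interaction of 3.53 (SE 0.47, adjusted p = 0.039). Cygb, the gene of the globin cytoglobin, had 2.78 and 1.54 CPM in control total, 0.864 and 0.809 in control granule, 1.43 and 2.48 in knockout total and 21.2 and 16.0 in knockout granule libraries, and its interaction was 4.61 (SE 0.59, adjusted p = 0.037). Rab3il1, an exchange factor gene for Rab3A, had 23.8 and 14.5 CPM in control total, 11.7 and 12.6 in control granule, 6.38 and 8.22 in knockout total and 60.1 and 44.7 in knockout granule libraries. In these 3 genes the knockout granule libraries lay above the other 6 and carried the difference, in Rab3il1 with an interaction of 3.51 (SE 0.48, adjusted p = 0.039) and only under the 50% limit. Atcayos, an antisense transcript, stood at 18.3 and 29.7 CPM in knockout granule and under 1 CPM in the other 6. Its interaction was 5.26 (SE 0.60, adjusted p = 0.037), but 16.1% of the gene overlaps another gene model. Reads from that part cannot be assigned without the strand setting.

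Plxdc1, which encodes a plexin-domain receptor, had 1.37 and 0.831 CPM in control total, 0.544 and 0.413 in control granule, 1.98 and 2.74 in knockout total and 24.6 and 20.8 in knockout granule libraries, with an interaction of 4.46 (SE 0.52, adjusted p = 0.037). Nkd2, an inhibitor of Wnt signalling, had 3.10 and 2.84 CPM in control total, 0.767 and 1.13 in control granule, 5.58 and 6.15 in knockout total and 41.3 and 18.1 in knockout granule libraries, with an interaction of 3.98 (SE 0.61, adjusted p = 0.047). In both genes the knockout exceeded the control in each fraction and knockout granule was highest, so no single group carried the difference, except in Plxdc1 without knockout total replicate 2, where knockout granule did. Scara5, a ferritin receptor gene, had 5.31 and 4.65 CPM in control total, 0.990 and 0.888 in control granule, 2.45 and 4.73 in knockout total and 12.9 and 14.3 in knockout granule libraries. Control granule was lowest, and carried the interaction of 4.33 (SE 0.52, adjusted p = 0.037) under the 50% limit, but knockout granule carried it without knockout total replicate 2 and no single group under the stricter limit. Cldn4, a tight-junction claudin gene, had 9.80 and 5.43 CPM in control total, 6.09 and 5.47 in control granule, 0.827 and 0.987 in knockout total and 9.07 and 8.78 in knockout granule libraries. The knockout total libraries alone were low, the other 6 overlapped, and knockout total carried the interaction of 3.70 (SE 0.49, adjusted p = 0.039) under both limits. Epithelial marker sums, like those of fibroblast and neural markers, were also lowest in the knockout total libraries, and their part in this value was not tested. In the absence of knockout total replicate 1 the interactions of these 8 genes ran from 3.32 in Rab3il1 to 4.83 in Atcayos, each with the same carrying group.

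Some genes called lower were low in knockout granules alone, and in others the order of fractions was reversed between the genotypes. Sprtn, which encodes a protease for DNA-protein crosslinks, had 18.9 and 21.1 CPM in control total, 23.1 and 18.2 in control granule, 20.6 and 25.8 in knockout total and 4.11 and 3.67 in knockout granule libraries. Tmem171 had 30.7 and 24.6 CPM in control total, 37.2 and 35.9 in control granule, 30.0 and 21.7 in knockout total and 5.85 and 5.03 in knockout granule libraries. Gm14230 had 12.4 and 13.7 CPM in control total, 13.7 and 11.1 in control granule, 10.2 and 11.8 in knockout total and 1.17 and 1.17 in knockout granule libraries. In all 3 the knockout granule libraries were the low ones, below the lowest of the other 6 by 4.42-fold in Sprtn, 3.71-fold in Tmem171 and 8.71-fold in Gm14230. They carried interactions of -2.62 (SE 0.39, adjusted p = 0.044) in Sprtn, -2.65 (SE 0.40, adjusted p = 0.044) in Tmem171 and -3.16 (SE 0.39, adjusted p = 0.037) in Gm14230. These became -2.79, -2.42 and -3.27 without knockout total replicate 1.

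Slc19a2, a thiamine transporter gene, had 17.8 and 20.7 CPM in control total, 38.0 and 36.6 in control granule, 47.1 and 43.5 in knockout total and 12.3 and 11.8 in knockout granule libraries. Its granule level was above total in the control and below it in the knockout, and the 4 groups did not overlap. The interaction was -2.87 (SE 0.35, adjusted p = 0.037), carried by knockout granule under the 50% limit. Trpc1, a cation channel gene, had 3.83 and 5.72 CPM in control total, 7.68 and 6.93 in control granule, 23.6 and 9.09 in knockout total and 1.15 and 1.14 in knockout granule libraries, with an interaction of -4.45 (SE 0.66, adjusted p = 0.044). Abcb1b, an efflux pump gene, had 17.3 and 23.2 CPM in control total, 32.9 and 29.9 in control granule, 53.5 and 36.1 in knockout total and 11.6 and 11.1 in knockout granule libraries, with an interaction of -2.62 (SE 0.42, adjusted p = 0.049). Both were lowest in knockout granule, which carried them, and highest in knockout total, whose replicates differed 2.59-fold in Trpc1. The stricter limit gave neither a single group. Values were -3.62 for Trpc1 and -2.32 for Abcb1b without knockout total replicate 1. Zfp697, a zinc-finger gene, had 3.85 and 5.47 CPM in control total, 9.86 and 8.92 in control granule, 8.58 and 9.34 in knockout total and 3.01 and 3.05 in knockout granule libraries, with an interaction of -2.57 (SE 0.41, adjusted p = 0.047), also carried by knockout granule. Slc19a2 stood at -2.82 and Zfp697 at -2.64 without knockout total replicate 1.

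Other groups carried the rest. Sp8, a limb-bud transcription factor gene, had 2.25 and 3.57 CPM in control total, 14.4 and 13.1 in control granule, 8.30 and 6.19 in knockout total and 1.83 and 2.52 in knockout granule libraries. The control granule libraries were highest and carried the interaction of -3.97 (SE 0.50, adjusted p = 0.037). Fam110c had 15 and 20.4 CPM in control total, 35.8 and 32.0 in control granule, 92.7 and 58.6 in knockout total and 15.1 and 13.9 in knockout granule libraries, with knockout total highest and carrying the interaction of -3.32 (SE 0.45, adjusted p = 0.039). Without knockout total replicate 1 these were -3.76 and -2.96. Zfp36l2, which encodes a protein that binds AU-rich elements and promotes mRNA decay, had 133 and 165 CPM in control total, 560.4 and 483 in control granule, 429.9 and 337 in knockout total and 228 and 201 in knockout granule libraries. Its control total libraries were lowest and its control granule libraries highest, with the knockout groups between them. The interaction was -2.65 (SE 0.37, adjusted p = 0.040), carried by control total with all 8 libraries and by control granule without knockout total replicate 1, where it was -2.47 (SE 0.27, adjusted p = 0.00018).

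**Figure D3:**
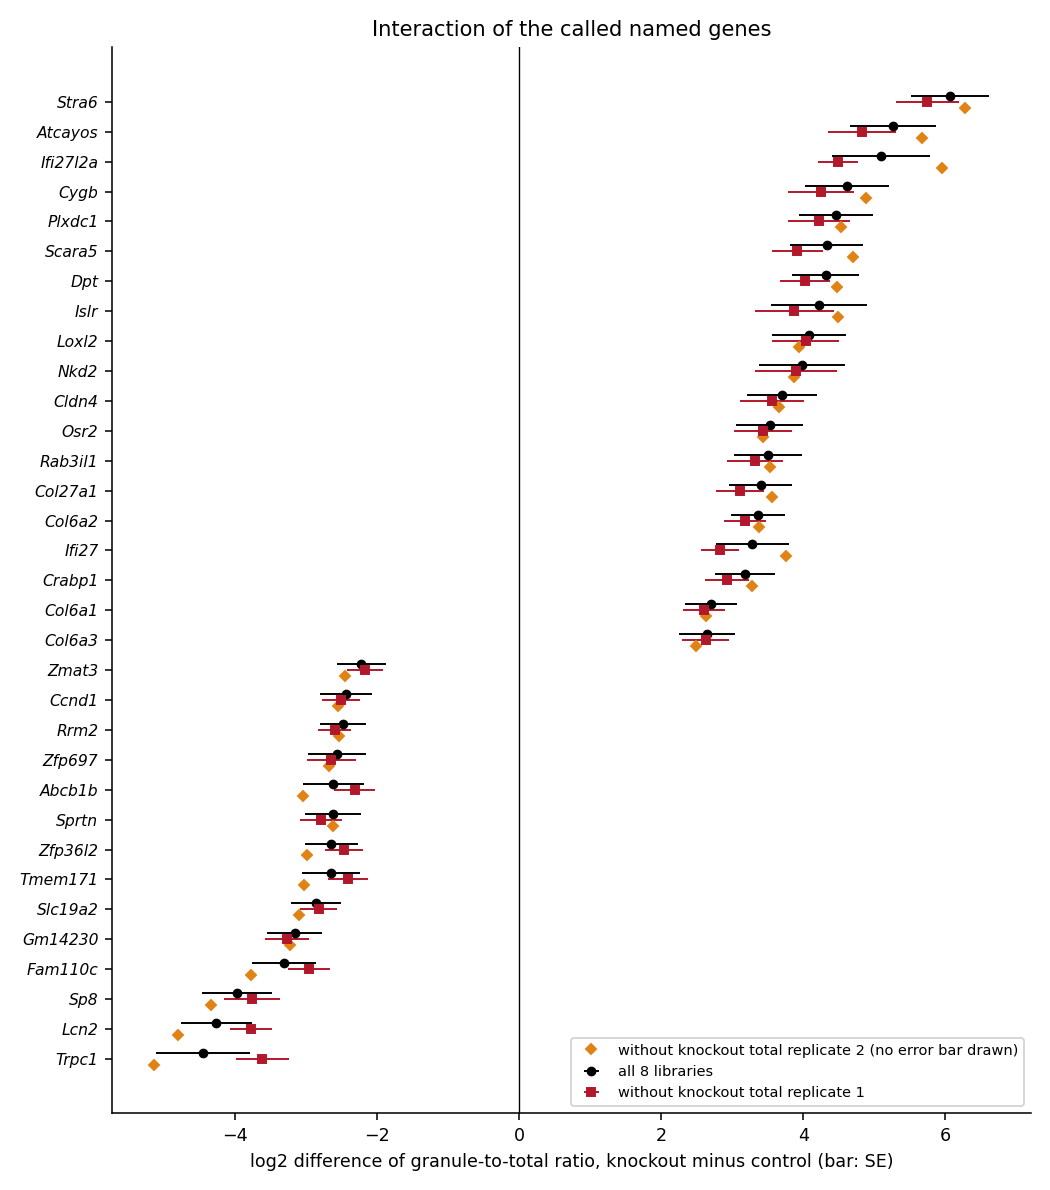
Log2 interaction of the 33 named genes called with all 8 libraries, with bars of 1 SE, beside the values without knockout total replicate 1 and without knockout total replicate 2 (drawn without bars). Each of the 33 stays on its side of 0, from Stra6 at 6.07 to Trpc1 at -4.45.

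Both called cell cycle genes stood higher in granule than in total RNA of the control and lower in granule than in total RNA of the knockout. Ccnd1, the gene of cyclin D1, had 88.5 and 67.2 CPM in control total, 240 and 239 in control granule, 81.2 and 87.7 in knockout total and 44.1 and 51.7 in knockout granule libraries. The control granule libraries were at least 2.70 times above any other and carried the interaction of -2.44 (SE 0.36, adjusted p = 0.044), with 23.4% of the gene shared with another gene model. Rrm2, the gene of a ribonucleotide reductase subunit, had 205 and 205 CPM in control total, 460.4 and 439 in control granule, 236 and 273 in knockout total and 103 and 97.2 in knockout granule libraries. Control granule was highest and knockout granule lowest, and the interaction was -2.48 (SE 0.33, adjusted p = 0.039), which knockout granule carried under the 50% limit. Leaving out knockout total replicate 1 gave -2.51 for Ccnd1 and -2.60 for Rrm2. These were the 2 calls among 24 proliferation genes, with 0 higher and 10 lower at an unadjusted p under 0.05, a median of -0.80, 14 called lower without that library and 15 without replicate 2. Ccna2 and Ccnb1, cyclin genes of S phase and mitosis, were at -2.20 and -1.67 with all 8, short of the threshold (adjusted p = 0.099 and 0.086 by edgeR), at -1.38 and -1.42 without it, and at -2.89 and -2.07 without replicate 2.

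Of 20 tested p53 targets, 6 had a value above 0, against 9984 of all 18952 tested genes (52.7%). Zmat3, an RNA-binding p53 target, had 92.3 and 92.4 CPM in control total, 234 and 196 in control granule, 126 and 116 in knockout total and 56.3 and 64.6 in knockout granule libraries. Control granule was highest, knockout granule was lowest, and the interaction of -2.22 (SE 0.34, adjusted p = 0.047) was carried by control granule, and was -2.17 without knockout total replicate 1. Eda2r, a p53-induced receptor gene of the tumour necrosis factor family, had 16.4 and 25.8 CPM in control total, 50.8 and 45.7 in control granule, 104 and 46.5 in knockout total and 13.0 and 15 in knockout granule libraries. Its interaction of -3.62 (SE 0.59, adjusted p = 0.054) missed the threshold with all 8 libraries, with an uneven pair of knockout total libraries, and was -2.94 (SE 0.33, adjusted p = 0.00023) without replicate 1 of them and -4.26 (adjusted p = 5.9e-06) without replicate 2. Knockout granule carried it in the former case and knockout total in the latter. Mdm2, which encodes the ubiquitin ligase that limits p53, had 105 and 162 CPM in control total, 475 and 416 in control granule, 620.2 and 262 in knockout total and 223 and 241 in knockout granule libraries, with an interaction of -2.67 (SE 0.59, adjusted p = 0.086) with all 8, -1.93 (SE 0.31, adjusted p = 0.0020) without replicate 1 and -3.33 (adjusted p = 1.2e-05) without replicate 2. Control total carried the Mdm2 difference under the 50% limit, with or without knockout total replicate 1. Of 20 p53 targets tested, 0 were called higher and 1 lower by edgeR, with 0 and 10 at an unadjusted p under 0.05. The median was -1.19, and 9 were called lower without knockout total replicate 1, with a median of -0.91, against 3 higher and 12 lower without replicate 2. Bax and Bbc3, which promote cell death, were at 0.87 and 0.82 with all 8 libraries and 0.13 and 0.01 without knockout total replicate 1, short of the threshold. Without replicate 2 both were called higher, at 2.22 (adjusted p = 6.2e-05) for Bax and 2.51 (adjusted p = 2.8e-05) for Bbc3.

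Lcn2, an acute phase gene whose product binds bacterial siderophores, had 11 and 14.9 CPM in control total, 3.96 and 4.6 in control granule, 441 and 241 in knockout total and 6.22 and 5.49 in knockout granule libraries. The knockout total libraries were at least 16.2 times above every other library and carried the interaction of -4.27 (SE 0.50, adjusted p = 0.037), which was -3.78 without replicate 1 of them. Between the granule groups the log2 difference of knockout from control was 0.45, against 4.67 between the total groups. Saa3, another acute phase gene, had 24.4 and 37.9 CPM in control total, 4.77 and 4.79 in control granule, 138 and 391 in knockout total and 10.2 and 8.52 in knockout granule libraries. It too was highest in knockout total, without a single carrying group, and its interaction was -2.12 (SE 0.66, adjusted p = 0.12) with all 8 and -2.70 (SE 0.32, adjusted p = 0.00031) without knockout total replicate 1, but -1.35 (adjusted p = 0.0044) without replicate 2. Of 24 inflammatory and acute phase genes, Lcn2 was the single call, and 2 were higher and 8 lower at an unadjusted p under 0.05. The list's median of -0.53 with all 8 libraries was -0.10 without knockout total replicate 1 and -0.65 without replicate 2. Nfkbia, the inhibitor of NF-κB, lay on the other side at 1.45 (adjusted p = 0.090 by edgeR), from 535 and 540.1 CPM in knockout granule against 188 and 200.4 in control granule. Its interaction was 1.55 without knockout total replicate 1 and 1.165 without replicate 2.

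Genes of stress granule proteins had the lowest median of the 19 lists with all 8 libraries, though not without knockout total replicate 1, and none was called. Of 23 tested, 0 were called by edgeR with all 8 libraries, and 17 were lower and 0 higher at an unadjusted p under 0.05, with 8 called lower by DESeq2 and 3 by limma voom. The median was -1.43, -0.83 without knockout total replicate 1, with 11 called lower, and -1.91 without replicate 2, with 1 higher and 21 lower. Removal of the GC trend left it at -1.01, with 5 called lower. G3bp2, a granule scaffold gene, had 35.9 and 53.5 CPM in control total, 91.2 and 93.8 in control granule, 183 and 86.9 in knockout total and 63.9 and 62.5 in knockout granule libraries, with an interaction of -2.15 (SE 0.54, adjusted p = 0.096), -1.52 (SE 0.30, adjusted p = 0.0049) without knockout total replicate 1 and -2.76 (adjusted p = 2.2e-05) without replicate 2, and 23.7% of the gene overlaps another gene model. Fmr1, the gene of the RNA-binding protein FMRP, had 25.8 and 52.1 CPM in control total, 240.4 and 209 in control granule, 152 and 52.2 in knockout total and 89.8 and 107 in knockout granule libraries, and its interaction was -2.59 (SE 0.73, adjusted p = 0.11), -1.63 (SE 0.41, adjusted p = 0.018) without replicate 1 and -3.33 (adjusted p = 5.5e-05) without replicate 2. In both genes knockout total replicate 1 was over 2 times replicate 2. With or without that replicate 1, control total carried G3bp2 under the 50% limit and no single group carried Fmr1. The 20 genes of m6A writers, readers and erasers had 0 calls by edgeR, 6 lower at an unadjusted p under 0.05 (14.6% of all genes were), 4 lower by DESeq2 and 1 by limma voom. Their median was -0.76 and -0.47 without knockout total replicate 1, with 6 called lower. Without replicate 2 it was -1.13, with 1 higher and 15 lower, and after removal of the GC trend -0.19, with 1 called lower. Ythdf3, a cytoplasmic m6A reader gene, was at -2.44 with all 8 libraries (adjusted p = 0.13 by edgeR), -1.22 without replicate 1 and -3.27 without replicate 2.

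The mitochondrially encoded genes changed sign with a single library. Among 7 tested, 0 were called with all 8 libraries by edgeR and 0 passed an unadjusted p under 0.05, with 0 higher and 0 lower by DESeq2 and 0 higher and 0 lower by limma voom and a median of -0.35. Without knockout total replicate 1 all 7 were called higher, with a median of 2.97, while without replicate 2, 5 were called lower and 0 higher, with a median of -1.44. mt-Nd2, a complex I subunit gene, had 728 and 692 CPM in control total, 393 and 431 in control granule, 12910 and 469 in knockout total and 1928 and 2390 in knockout granule libraries. Knockout total replicate 1 was high beside every other library, and the interaction was -0.85 (SE 1.49, adjusted p = 0.74) with all 8 libraries, 2.97 (SE 0.28, adjusted p = 8.3e-05) without it and -1.97 (adjusted p = 0.00010) without replicate 2. The median was also positive with limma voom, at 0.81, and after removal of the GC trend, at 1.10. The mitochondrial ribosomal RNA mt-Rnr2 had 1293 and 1742 CPM in control total, 1597 and 2048 in control granule, 10410 and 1626 in knockout total and 25070 and 41190 in knockout granule libraries. Its knockout granule libraries were highest, and the interaction was 2.20 (SE 1.02, adjusted p = 0.22), and 4.07 (SE 0.43, adjusted p = 0.00023) without knockout total replicate 1, where knockout granule carried it. Without replicate 2 it was 1.24 (adjusted p = 0.026), with no single carrying group.

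Heat shock and oxidative stress genes had a median of -0.49 over 23 tested, with 0 called by edgeR and 2 higher and 9 lower at an unadjusted p under 0.05. Without knockout total replicate 1, 2 were called higher and 8 lower, and without replicate 2, 2 higher and 12 lower. Calls with all 8 numbered 2 higher and 6 lower by DESeq2 and 2 higher and 3 lower by limma voom. The metallothionein gene Mt2 had 170.1 and 183 CPM in control total, 25.2 and 28.2 in control granule, 22.7 and 85.0 in knockout total and 132 and 98.6 in knockout granule libraries, with an interaction of 3.83 (SE 0.77, adjusted p = 0.074), 3.15 (SE 0.30, adjusted p = 8.0e-05) without replicate 1 and 4.90 (adjusted p = 4.6e-06) without replicate 2. Control granule carried the Mt2 interaction under the 50% limit, with or without knockout total replicate 1. Another gene model overlaps 73.5% of Mt2, and reads from that part cannot be assigned without the strand setting. Hspd1, a mitochondrial chaperonin gene, had 251 and 383 CPM in control total, 658 and 649 in control granule, 379 and 415 in knockout total and 286 and 282 in knockout granule libraries. Its control granule libraries were the high ones, and the interaction was -1.52 (SE 0.39, adjusted p = 0.096 by edgeR). The value was -1.60 without knockout total replicate 1 and -1.63 without replicate 2. Of 19 sterol synthesis genes, 0 were called by edgeR, with 6 higher and 1 lower at an unadjusted p under 0.05, and 2 higher and 1 lower by DESeq2 and 2 higher and 0 lower by limma voom. The median of the sterol list was 0.51 with all 8 libraries, 0.50 without knockout total replicate 1 and 0.66 without replicate 2. Fdps, which makes farnesyl diphosphate, was at 2.76 (adjusted p = 0.076 by edgeR), with 26.7% of the gene under another gene model and 20.6 and 38.7 CPM in knockout total against 287 and 158 in control total. The medians of the immediate-early, ATF4 and contractile lists lay on either side of 0 depending on the setting, so no direction is given for them.

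**Figure D4:**
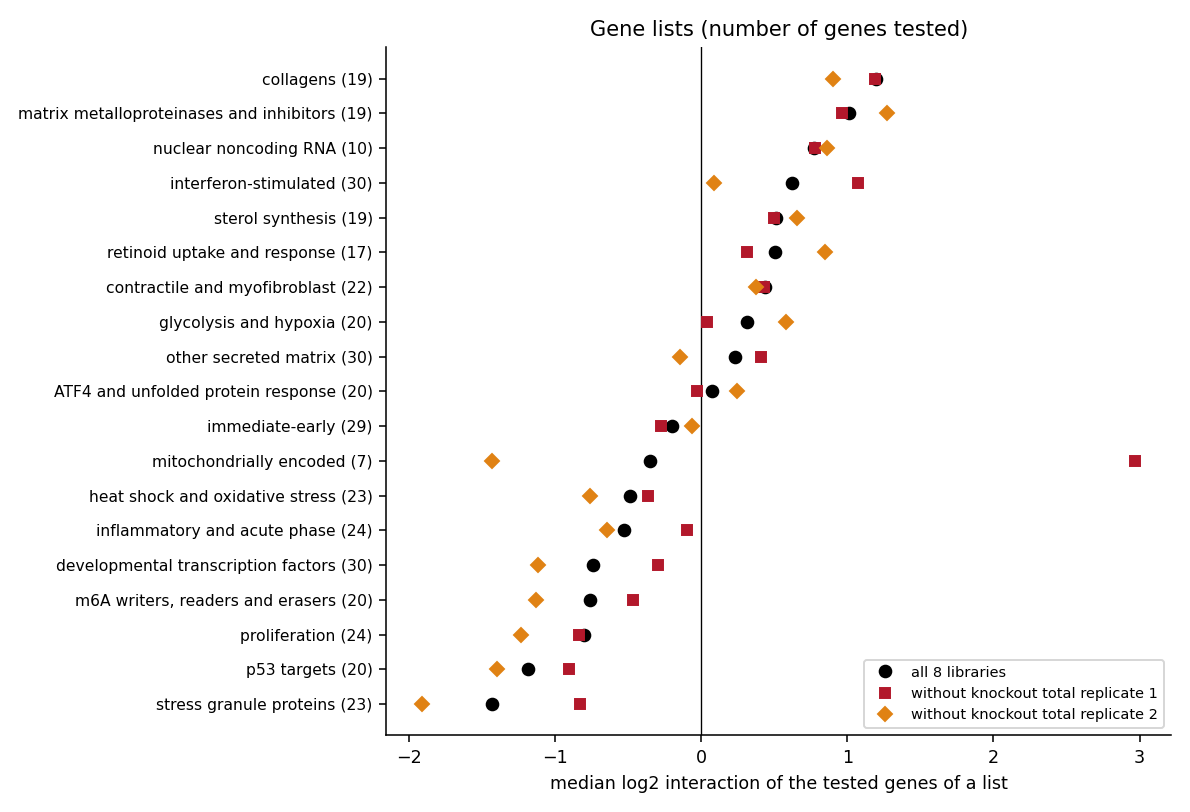
Median log2 interaction of the tested genes of each of 19 gene lists, with the number of genes tested in brackets, for all 8 libraries and without each of the knockout total replicates. With all 8 libraries collagens lie highest at 1.19 and stress granule proteins lowest at -1.43, while the mitochondrially encoded genes run across the 3 settings from -1.44 to 2.97.

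Leaving out knockout total replicate 1 brought further genes past the threshold, and the highest of them rest on the single library that then stands for that group. Cd79a and Cd22, defining genes of B lymphocytes, had interactions of 6.02 (SE 0.90, adjusted p = 0.0047) and 5.76 (SE 0.89, adjusted p = 0.0050) without that library. With all 8 libraries they were 1.39 and 1.37, and without replicate 2, 0.25 and 0.23, called in neither. Cd79a had 9.40 and 7.63 CPM in control total, 4.74 and 8.99 in control granule, 10.3 and 0.208 in knockout total and 6.26 and 15.8 in knockout granule libraries. Cd22 had 11 and 6.83 CPM in control total, 4.66 and 7.73 in control granule, 9.96 and 0.239 in knockout total and 5.18 and 13.1 in knockout granule libraries. In both genes knockout total replicate 2 alone was low, so knockout total carried the difference. Of 10 B lymphocyte genes, chosen after these values were seen, 8 were lowest in that library, and their summed level there was 20.5 CPM against 56.3 to 145 CPM in the other 7. The part of these genes' source in other results was not tested.

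**Figure D5:**
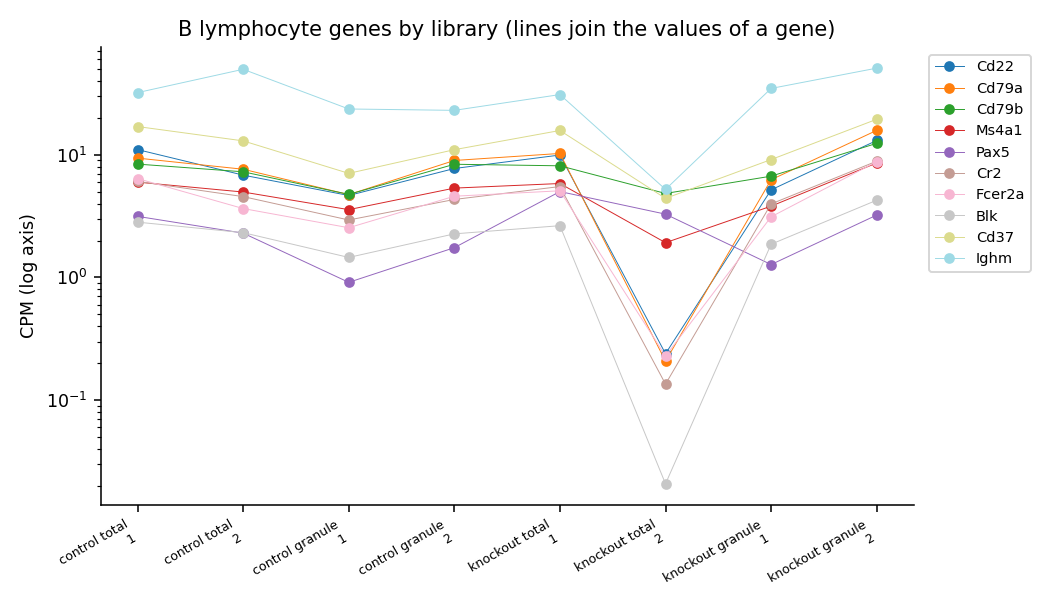
CPM on a log axis for 10 B lymphocyte genes in each of the 8 libraries, with lines joining the values of a gene. Knockout total replicate 2 is the lowest library for 8 of the 10, and Cd79a stands at 0.208 CPM there.

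Tmem119, Ccn5, Hhip and Inka2 also passed at this step, with both knockout granule libraries on the same side of the other 6. Tmem119, an osteoblast and microglia membrane gene, had 12.4 and 7.05 CPM in control total, 4.97 and 4.68 in control granule, 3.59 and 12.5 in knockout total and 160.4 and 112 in knockout granule libraries. The knockout granule libraries alone were high, and the interaction was 5.09 (SE 0.82, adjusted p = 0.050) with all 8 libraries, just short of the threshold, and 4.44 (SE 0.44, adjusted p = 0.00017) without knockout total replicate 1 and 6.08 (adjusted p = 6.1e-06) without replicate 2. Ccn5, which encodes a secreted matricellular protein, had 3.66 and 2.36 CPM in control total, 1.22 and 0.800 in control granule, 0.809 and 2.74 in knockout total and 18.8 and 9.77 in knockout granule libraries. Here too knockout granule was highest, and it carried the interaction of 4.58 (SE 0.87, adjusted p = 0.071) with all 8 libraries and 3.94 (SE 0.57, adjusted p = 0.0015) without knockout total replicate 1 and 5.54 (adjusted p = 2.7e-05) without replicate 2. Hhip, which encodes a hedgehog-binding inhibitor, had 5.02 and 7.81 CPM in control total, 4.47 and 4.74 in control granule, 16.0 and 13.7 in knockout total and 2.13 and 0.885 in knockout granule libraries, with interactions of -2.82 (adjusted p = 0.084 by edgeR) and -2.71 (SE 0.53, adjusted p = 0.0060). It was higher in knockout total and lower in knockout granule than in the controls, with no single carrying group. Inka2, an inhibitor gene of the kinase PAK4, had 17.3 and 13.9 CPM in control total, 21.6 and 19.7 in control granule, 15 and 30.9 in knockout total and 5.36 and 7.85 in knockout granule libraries. Knockout granule was lowest and carried its interaction of -2.20 (adjusted p = 0.096 by edgeR), which was -2.64 (SE 0.33, adjusted p = 0.00041) without knockout total replicate 1 and -1.76 (adjusted p = 0.00086) without replicate 2.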

How the data were processed

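Poly(A)-selected RNA of 8 mouse fibroblast libraries was measured. The authors deposited raw counts per Ensembl gene, 1 column a library. STAR and DESeq2 and the builds GRCm38 and mm10 are named per the submitters' processing notes, with no version, and the counting program and strand setting are not given in the sources used here. Of 39017 identifiers, 37693 matched GENCODE M21. All 8 columns matched labels by genotype, fraction and replicate number. The members and the gene lists were chosen with earlier results of these data known.

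Counts were fitted with edgeR 4.0.16 (R 4.3.3) with TMM scaling, filterByExpr, 1 mean a group and a robust quasi-likelihood fit. Genes with an adjusted p under 0.05 over all 18952 genes tested were called. CPM use TMM-scaled library sizes, and log2 CPM a prior count of 2. Alternatives used DESeq2 1.42.0, limma 3.58.1, other scalings and filters, GC and length trends and each library left out. The procedure was tested on simulated counts with the same spread in every group. That test therefore does not cover the uneven knockout total replicates of these data. Named genes were, at a mean of 5 CPM or more, the 14 highest and 10 lowest called, the 5 highest and 5 lowest further genes called without knockout total replicate 1, every called list member at any level, and Mettl3. List members that were not called were chosen for mention after their values were seen. A few items are not reported here and were left out of the gene lists. Library totals ran from 67257220 to 123508539 counts, and the 2 replicates a group limit the precision.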

Additional observations from a re-analysis of the deposited data

Results flagged for a closer look

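The granule-to-total ratio differed between the genotypes by the interaction test for 98 genes, 33 of them named. The log2 difference, knockout minus control, was 6.07 in Stra6, 5.26 in Atcayos, 5.10 in Ifi27l2a, 4.61 in Cygb, 4.46 in Plxdc1, 4.33 in Scara5 and 4.31 in Dpt. It was 4.22 in Islr, 4.08 in Loxl2, 3.98 in Nkd2, 3.70 in Cldn4, 3.53 in Osr2, 3.51 in Rab3il1 and 3.40 in Col27a1. Further higher values were 3.28 in Ifi27, 2.70 in Col6a1, 3.36 in Col6a2, 2.65 in Col6a3 and 3.17 in Crabp1. The knockout ratio was the lower one by a log2 difference of -4.45 in Trpc1, -4.27 in Lcn2, -3.97 in Sp8, -3.32 in Fam110c, -3.16 in Gm14230, -2.87 in Slc19a2 and -2.65 in Tmem171. Other lower values were -2.65 in Zfp36l2, -2.62 in Sprtn, -2.62 in Abcb1b, -2.57 in Zfp697, -2.22 in Zmat3, -2.44 in Ccnd1 and -2.48 in Rrm2. Each was tested as a difference between 2 groups of effects, with 2 libraries a group.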

How the results depend on the processing

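The count of called genes, 98, depended on the processing far more than the genes' directions did. It was 156 with upper-quartile scaling, 2724 with DESeq2, 742 with limma voom and quality weights, 3476 without a filter beyond 1 count, 46 among genes at 5 CPM or more, 1690 after removal of a GC trend and 625 with that removal in a fit with a replicate block. Leaving out 1 library gave 0 to 9349, with 3712 without knockout total replicate 1 and 9349 without replicate 2, and 0 without any of the other 6. The cause was not tested. Replicate numbers were not shown to pair the samples, since the correlations of same-numbered deviations ran from -0.25 to 0.095. With the replicate block 0 genes were called by edgeR (lowest adjusted p 0.10, 3923 at an unadjusted p under 0.05). None of the 43 named genes reversed: of their values, 593 stayed on the same side of the threshold, 258 lost their call and 52 gained one. Genes mentioned outside those 43 are not counted there. Among them, mt-Nd2 changed sign with the knockout total library that was left out. The carrying group of a named gene was the same in 110 cases and moved in 19, 17 of these under the stricter limit. Medians of lists stayed within 1 SD in 447 cases and moved in 78. That SD was taken over the choices of 1 library a group, so it is wide where replicates disagree. The median had the other sign in 10 of 21 alternatives for the ATF4 list and in 4 for the mitochondrially encoded genes. With 2 libraries a group the precision rests on the pooled spread.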
